A study of Homo sapiens with 10 samples.

Results

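Olfactory receptor genes on chromosome 11 were followed through 6 peak lists from chromatin immunoprecipitation with sequencing (ChIP-seq), a method that counts the DNA fragments recovered with a chromatin protein. The genes were taken as every protein-coding gene of chromosome 11 whose symbol is OR followed by digits, letters and digits. RefSeq lists 171 of them on GRCh38.p14, among 20033 protein-coding genes. The coordinates given for 3 of these, OR9G9, OR8U8 and OR8U9, appear to be counted on alternate-locus sequence. These 3 genes were left out, so that 168 receptor genes and 1130 other protein-coding genes of the chromosome were compared. A gene counted as listed in a library when the summit of a peak, its highest point, lay within 1 kb of either end of the gene.

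All libraries came from 22RV1, an established human prostate cancer cell line, with a single unreplicated library per group. The groups were RB1 siRNA and control siRNA, a plasmid for HA-tagged RB residues 245-255, called HA-RB(245-255), and its empty vector EV(245-255), and a plasmid for the insert the labels call RBN, called HA-RBN, and its empty vector EV(RBN). One label field puts HA-RB(245-255) in a control group, and its title was followed instead. The labels name no antibody, and the series title concerns the chromatin reader TRIM24 and the RB residues S249 and T252. The siRNA pair and the 245-255 pair have IgG partner samples, which were not analysed here, and the RBN pair has none. Since no group has a replicate, no difference between libraries could be tested, and every interval given is an exact 95% interval that covers counting error only.

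Olfactory receptors are G protein-coupled receptors of sensory neurons in the nose. Each neuron is known to express a single receptor allele, while the other receptor genes of the same cell lie in compacted chromatin. Most of these genes have a short coding exon, stand in clusters of close relatives and are mostly not transcribed outside the nose, so they serve here as a gene class for the level of listed summits where little transcription is known to occur. The class I receptors, families 51 to 56, are the relatives of fish receptors, and the class II receptors make up the rest. OR51E1 and OR51E2 are the known exceptions in this tissue, being expressed in prostate epithelium and in prostate cancer. Transcription itself was not measured in these files.

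The receptor promoters, taken here as windows at the annotated gene starts, were poor in CpG. Of the 168 genes, 135 had an entry in the RefSeq promoter table, which covers 250 bases before and 50 bases after the annotated start. Their median was 1 CpG dinucleotide in 300 bases and 37% G or C, against 22 CpG and 62.7% in the 818 other genes of chromosome 11 with an entry. No more than 3 CpG occurred in 128 of the 135 receptor promoters (94.8%), against 12.3% of the other promoters. Promoters are shown for OR52W1, which had the most fragments at a gene end summit, and for OR10G8, the other member listed in 3 libraries. Those of the prostate receptor OR51E1 and of OR52N2, the member promoter with the most CpG, are shown too. They lie on the plus strand at chr11:6198974-6199273, chr11:124026548-124026847, chr11:4643732-4644031 and chr11:5808674-5808973, and run 5′ to 3′ with each CpG in capitals.
OR52W1: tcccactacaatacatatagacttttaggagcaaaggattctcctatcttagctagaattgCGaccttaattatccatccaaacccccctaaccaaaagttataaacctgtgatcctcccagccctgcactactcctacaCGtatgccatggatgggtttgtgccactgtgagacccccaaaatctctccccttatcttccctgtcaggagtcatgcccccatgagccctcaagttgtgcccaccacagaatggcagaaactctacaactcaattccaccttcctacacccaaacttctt
OR10G8: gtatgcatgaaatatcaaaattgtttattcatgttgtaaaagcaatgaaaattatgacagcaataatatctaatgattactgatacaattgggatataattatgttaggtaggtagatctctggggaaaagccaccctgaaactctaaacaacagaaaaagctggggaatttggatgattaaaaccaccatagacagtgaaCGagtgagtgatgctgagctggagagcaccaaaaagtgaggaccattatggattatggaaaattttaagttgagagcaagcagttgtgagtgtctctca
OR51E1: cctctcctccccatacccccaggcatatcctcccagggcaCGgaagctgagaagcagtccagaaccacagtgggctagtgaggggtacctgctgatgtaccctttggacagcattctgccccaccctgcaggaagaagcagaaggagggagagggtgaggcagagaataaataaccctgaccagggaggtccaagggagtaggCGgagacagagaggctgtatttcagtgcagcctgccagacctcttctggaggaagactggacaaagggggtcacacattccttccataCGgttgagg
OR52N2: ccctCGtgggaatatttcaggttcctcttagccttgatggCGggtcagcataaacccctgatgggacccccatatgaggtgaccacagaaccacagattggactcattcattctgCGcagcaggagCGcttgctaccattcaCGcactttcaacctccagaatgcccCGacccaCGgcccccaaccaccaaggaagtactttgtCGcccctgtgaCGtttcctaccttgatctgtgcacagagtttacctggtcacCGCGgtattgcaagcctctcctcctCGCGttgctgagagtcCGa
The counts of CpG in these windows were 2 in OR52W1, 1 in OR10G8, 3 in OR51E1 and 14 in OR52N2. In OR52W1 the last 50 bases, from the annotated start on, begin with ATG, as a coding sequence does. The annotation of such a gene may begin at its coding exon, and the transcript may start elsewhere. Genes of 2 kb or less numbered 92 of 168 receptor genes, against 69 of 1130 other genes of chromosome 11. Whether the windows hold the promoters in use was not tested.

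Few receptor genes were listed in any library. Gene end summits were found at 2 of the 168 receptor genes with RB1 siRNA, against 0 of 168 with control siRNA. There were 12 in HA-RB(245-255) and 8 in EV(245-255), and there were 27 in HA-RBN and 21 in EV(RBN). The background over all 20030 placed protein-coding genes was 33.5% with RB1 siRNA, 28.1% with control siRNA, 45.5% in HA-RB(245-255), 45.4% in EV(245-255), 73.4% in HA-RBN and 60.2% in EV(RBN).

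Expressed as shares, the receptor genes reached 1.19% with RB1 siRNA (interval 0.144 to 4.23), against 32.9% of the other genes of chromosome 11 (30.2 to 35.7). In the control siRNA library, 0 of 168 receptor genes allows a share of up to 1.79% (3 counts of the total; the exact interval reaches 2.172%), against 27.2% of the other genes (24.6 to 29.9). The share was 7.14% in HA-RB(245-255) (3.75 to 12.1), against 42.7% of the other genes. In EV(245-255) it was 4.76% (2.08 to 9.17), against 44.4% of the other genes. It was highest in HA-RBN, at 16.1% (10.9 to 22.5), against 74.2% of the other genes. In EV(RBN) it was 12.5% (7.91 to 18.5), against 61.7% of the other genes. In none of the 6 libraries did the interval of the receptor genes meet that of the other genes. The order of the libraries by receptor share followed the number of peaks in the list, with 34035, 20860, 92479, 74457, 243310 and 156785 peaks in the order named above.

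**Figure D1:**
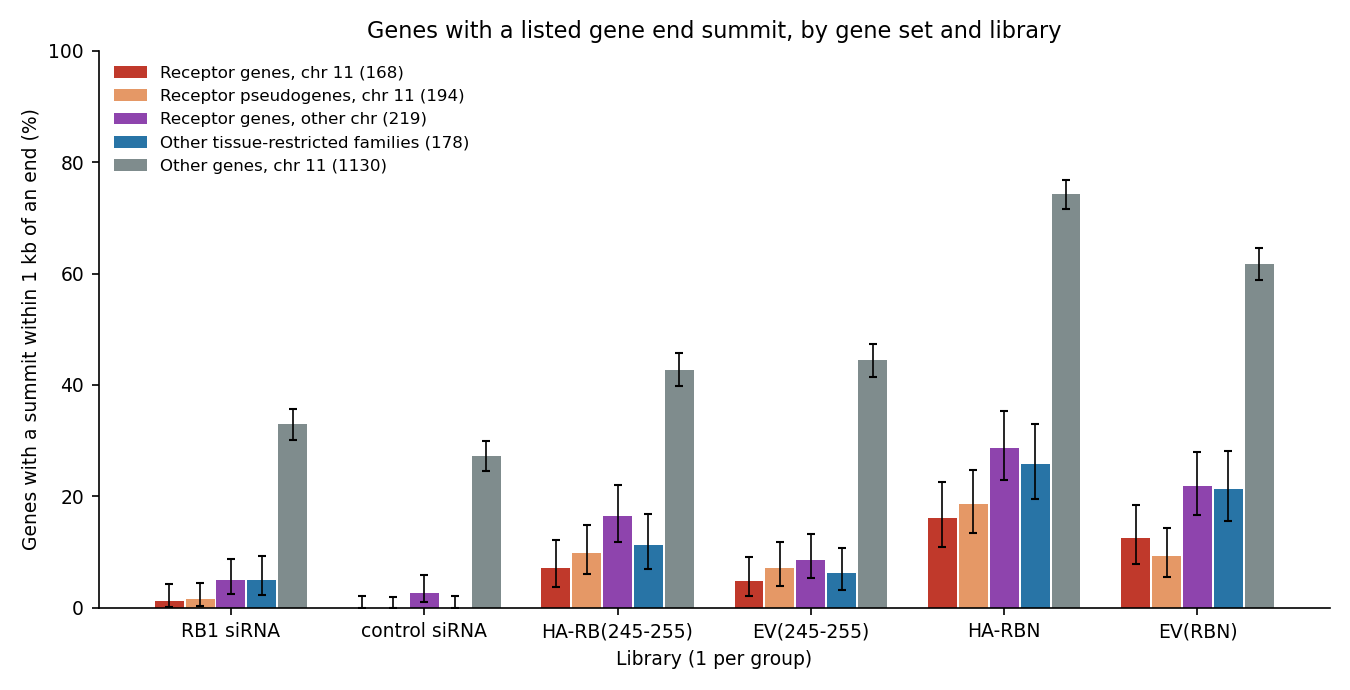
Percent of genes with a summit within 1 kb of an end (y axis) in each of the 6 libraries (x axis, 1 library per group) for 5 gene sets, with the number of genes in brackets. Bars are shares and lines are exact 95% intervals of counting error. The receptor genes of chromosome 11 reach 16.1% at most, in HA-RBN, and the other genes of the chromosome lie between 27.2% and 74.2%.

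Receptor pseudogenes, receptor genes elsewhere and other tissue-restricted families had low shares as well. The 194 receptor pseudogenes of chromosome 11 included 3, 0, 19, 14, 36 and 18 listed ones in the same library order, or 0% to 18.6%. Among the 219 receptor genes on other chromosomes the share was 5.02% with RB1 siRNA, 2.74% with control siRNA, 16.4% in HA-RB(245-255), 8.68% in EV(245-255), 28.8% in HA-RBN and 21.9% in EV(RBN). The chromosome 11 receptors had the lower share in each library, and the intervals of the 2 sets were apart in HA-RBN and overlapped in the other 5 libraries. The other families held 178 genes, for keratin-associated proteins, TAS2R taste and VN1R vomeronasal receptors, beta defensins (DEFB), interferon alpha and MRGPRX receptors. Of these, 5.06% were listed with RB1 siRNA, 0 with control siRNA, 11.2% in HA-RB(245-255), 6.18% in EV(245-255), 25.8% in HA-RBN and 21.3% in EV(RBN).

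The summits that did list a receptor gene were made of few fragments. The number of fragments stacked at each summit was recovered from the authors' fold enrichment and −log10 p-value. Across the 6 libraries there were 72 receptor summits, of 1 to 8 fragments with a median of 2, and 59 of them held at most 3. At least 5 fragments were found at 0 receptor genes with RB1 siRNA (background over all genes 32.5%), 0 with control siRNA (27.2%) and 0 in HA-RB(245-255) (37.5%). The counts were 1 in EV(245-255) (37.3%), 2 in HA-RBN (59.7%) and 1 in EV(RBN) (34.6%). At least 20 fragments were found at 0 of the 168 genes in all 6 libraries, against a background of 21.5%, 17.0%, 12.8%, 13.2%, 18.4% and 2.83% of all genes. The 219 receptor genes on other chromosomes and the 178 genes of other tissue-restricted families had 0 as well, in all 6 libraries. The median receptor summit held 3 fragments with RB1 siRNA, 2 in HA-RB(245-255), 2 in EV(245-255), 3 in HA-RBN and 2 in EV(RBN), and control siRNA had no receptor summit. Summits at other gene ends of chromosome 11 had medians of 28, 10, 10, 8 and 4 fragments in those libraries, and of 24 with control siRNA. Outside the receptor clusters and all gene end windows, summits of the chromosome had medians of 4, 3, 3, 3 and 3, and of 4 with control siRNA. A single receptor summit, at OR52W1 in HA-RBN, had a −log10 q-value of at least 2. In the 4 lists with an IgG partner the q-value could not mark summits of so few fragments. There 1 fragment was worth 0.0166 to 0.0512 on the list's scale. HA-RB(245-255) summits of 2 fragments at OR52R1 and of 4 at OR10Q1 had the same −log10 p-value, 1.90.

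**Figure D2:**
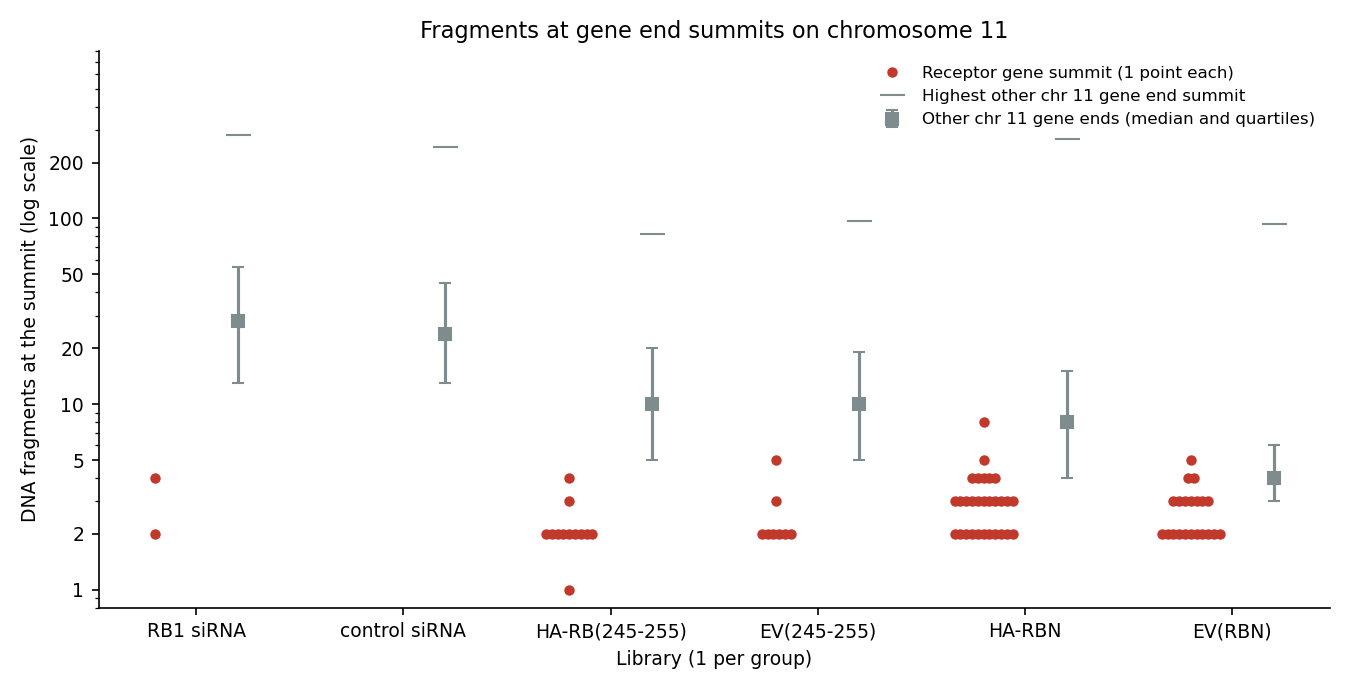
DNA fragments at the summit (y axis, log scale) in each library (x axis). Red points are the receptor gene end summits, grey squares with lines are the median and quartiles of summits at other gene ends of chromosome 11, and grey dashes are the highest of those. The receptor summits lie between 1 and 8 fragments, and 59 of 72 lie at 3 or fewer.

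The lists with an IgG partner limit what can be read from a gene that is not listed. On chromosome 11 their intervals had median lengths of 48755.5 bp with RB1 siRNA, 77543 bp with control siRNA, 18499.5 bp in HA-RB(245-255) and 22196 bp in EV(245-255), against 521 bp in HA-RBN and 445 bp in EV(RBN). These intervals covered 93.4% to 96.5% of the chromosome in the 4 lists with a partner, and 5.21% in HA-RBN and 2.97% in EV(RBN). Of the receptor genes, 167, 166, 167 and 168 had an interval of those 4 lists near an end, within 1 kb. An interval has 1 listed summit, at its highest point, so fragments at a receptor gene within a long interval are not shown when another point of it is higher. In HA-RBN an interval came within 1 kb of 29 receptor genes, and in EV(RBN) of 23.

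Summit density at the receptor gene ends was below that of other gene ends in each library. Receptor genes were short, with a median of 1103 bp against 18205.5 bp, so summits were counted per megabase of merged end windows, 0.572 Mb for the receptors and 4.02 Mb for the other genes of chromosome 11. The density at receptor ends was 3.50 summits per Mb with RB1 siRNA, against 78.0 at the other ends, a ratio of 0.0448 (interval 0.0054 to 0.163). With control siRNA it was 0 against 63.6 (ratio up to 0.102). In HA-RB(245-255) it was 21.0 against 111 (ratio 0.190, 0.0973 to 0.335), and in EV(245-255) 13.98 against 112 (0.125, 0.0538 to 0.249). In HA-RBN it was 50.7 against 236 (0.215, 0.143 to 0.310), and in EV(RBN) 36.7 against 189 (0.194, 0.120 to 0.299).

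Summit density at receptor ends was not distinguishable, at these counts, from that of the DNA around them in the same clusters. Relative to the parts of the clusters outside all gene end windows, the density at receptor ends was 0.435 with RB1 siRNA (0.0509 to 1.67), 0.742 in HA-RB(245-255) (0.375 to 1.34), 0.720 in EV(245-255) (0.302 to 1.47), 1.04 in HA-RBN (0.683 to 1.53) and 1.19 in EV(RBN) (0.717 to 1.89). All 5 intervals include 1, and with control siRNA, with 0 summits, the ratio could reach 1.71. The intervals are wide because the receptor ends held 0 to 29 summits per library. In HA-RBN the density within 1 kb of receptor ends was 50.7 per Mb (33.9 to 72.8), and it was 36.8 at 1 to 2 kb, 39.0 at 2 to 5 kb and 50.5 at 5 to 10 kb. Around the other genes in HA-RBN it was 236 per Mb within 1 kb and 115 per Mb at 5 to 10 kb. In EV(RBN) the receptors had 36.7 per Mb within 1 kb (22.7 to 56.1), 17.3 at 1 to 2 kb (7.48 to 34.1), 29.95 at 2 to 5 kb and 32.0 at 5 to 10 kb, and the other genes had 189 and 79.7 per Mb at those distances.

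**Figure D3:**
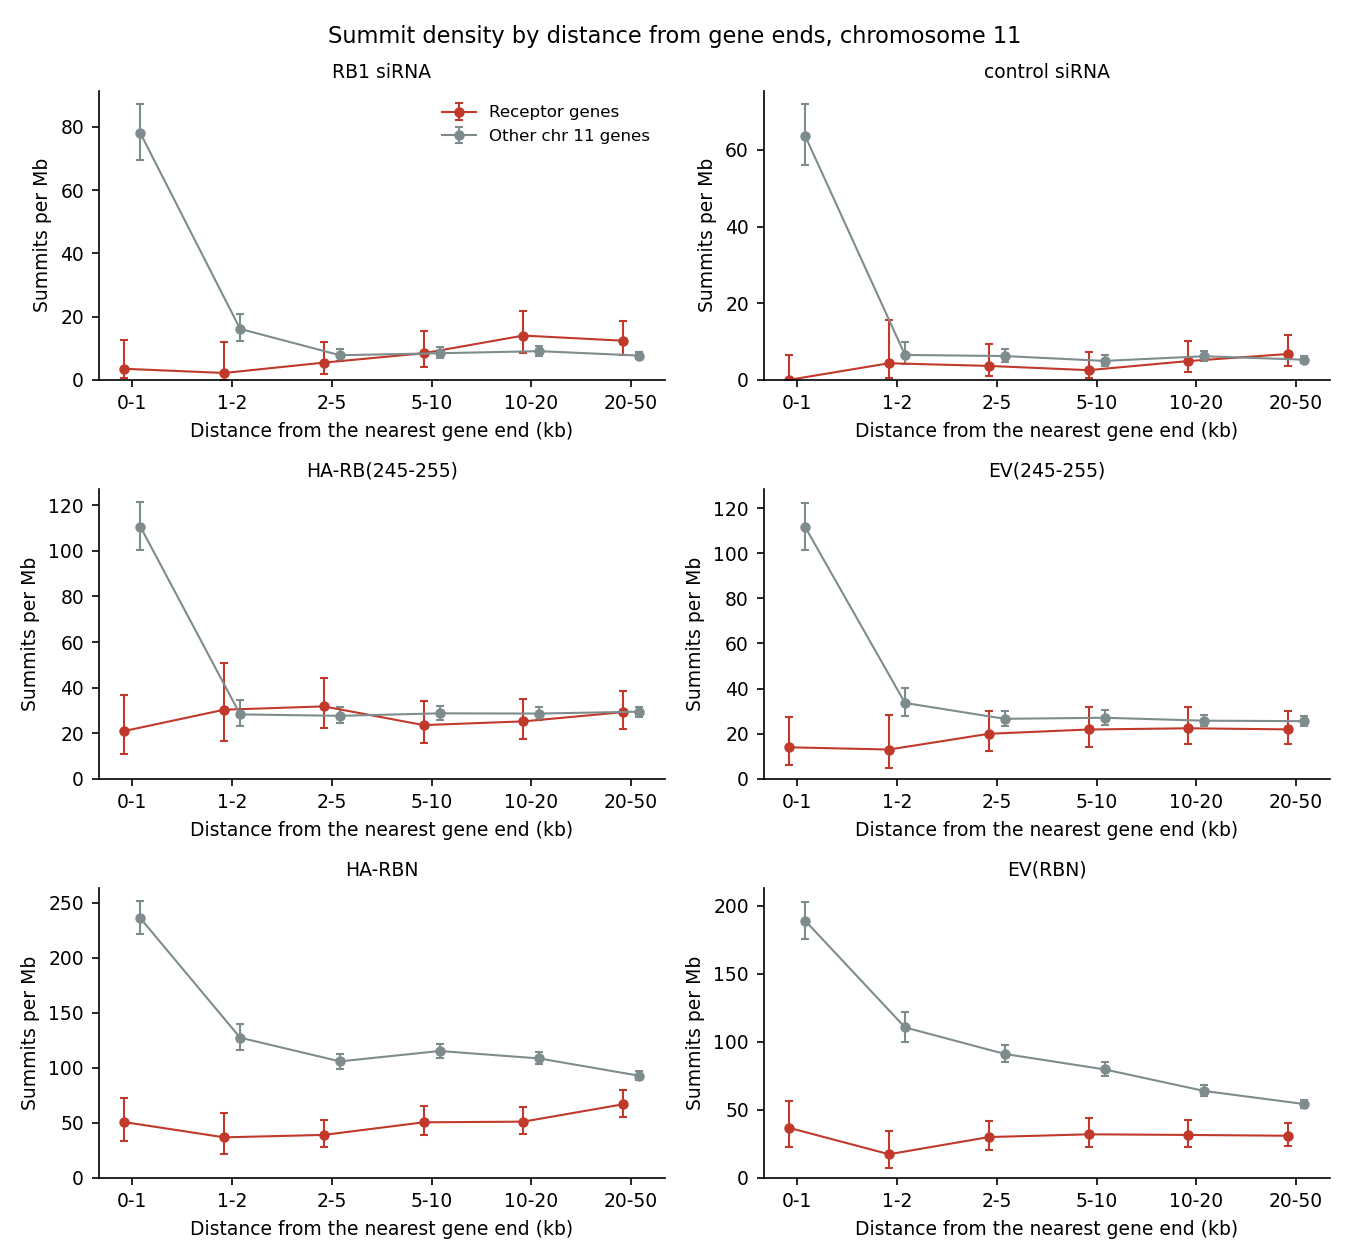
Summits per Mb (y axis) by distance from the nearest gene end in kb (x axis, uneven steps) in each library, for receptor genes (red) and other genes of chromosome 11 (grey), with exact Poisson 95% intervals. The other genes show their highest density within 1 kb in all 6 panels, 236 per Mb in HA-RBN, and the receptor genes show 50.7 per Mb there.

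Distances to the nearest of these same summits gave the same order of gene sets. The median receptor gene had its nearest summit 34352 bp from an end with RB1 siRNA, against 6413 bp for the other genes of the chromosome. With control siRNA the medians were 84978 bp against 11757 bp. They were 9150 bp against 1850.5 bp in HA-RB(245-255) and 12814 bp against 1449.5 bp in EV(245-255). In HA-RBN they were 5817.5 bp against 351.5 bp, and in EV(RBN) 8830.5 bp against 567.5 bp.

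The receptor genes formed 8 clusters, taken as runs of at least 3 members with gaps of at most 500 kb, which held 163 of the 168. All 55 class I genes lay in the first cluster, at chr11:4367263-6200186. Over all clusters, summit density relative to the rest of the chromosome was 0.674 with RB1 siRNA (0.495 to 0.899), 0.538 with control siRNA (0.343 to 0.805), 0.901 in HA-RB(245-255) (0.765 to 1.05), 0.739 in EV(245-255) (0.606 to 0.892), 0.592 in HA-RBN (0.525 to 0.665) and 0.584 in EV(RBN) (0.502 to 0.675). The interval included 1 in HA-RB(245-255) and lay below it in the other 5 libraries. The rest of the chromosome holds the ends of most other genes. Outside all gene end windows the ratio was 0.774 with RB1 siRNA (0.553 to 1.06) and 0.681 with control siRNA (0.419 to 1.05). It was 0.981 in HA-RB(245-255) (0.825 to 1.16) and 0.823 in EV(245-255) (0.667 to 1.01). These intervals include 1, while those of HA-RBN (0.600, 0.527 to 0.681) and EV(RBN) (0.594, 0.503 to 0.695) lay below it. In HA-RBN the cluster at chr11:59358895-59713845 had the highest density, 84.5 summits per Mb, and the cluster at chr11:58023881-58508105 had the lowest, 28.9 per Mb.

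Places in the clusters with 20 or more fragments were not at receptor genes. There were 8 such places, and 2 of them were the ends of OSBP, an oxysterol-binding protein gene, and PATL1, an mRNA decay factor gene, both between receptor genes. At OSBP the summit held 88 fragments with RB1 siRNA, 72 with control siRNA, 42 in HA-RB(245-255), 42 in EV(245-255), 48 in HA-RBN and 25 in EV(RBN). At PATL1 it held 44 with RB1 siRNA, 30 in HA-RB(245-255), 33 in HA-RBN and 7 in EV(RBN), and none was listed with control siRNA or in EV(245-255).

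Another 3 of the 8 places lay within 1 kb of tRNA genes, in the same cluster as OSBP. The annotation puts 8 tRNA genes inside the receptor clusters, all in chr11:59550629-59566452. The nearest of the 3 places was 29888 bp from OR4D9, the closest receptor gene. Beside TRV-TAC1-1 and TRV-TAC2-1, tRNA genes for valine, the summits held 39 fragments with RB1 siRNA, 21 in HA-RB(245-255), 20 in EV(245-255), 117 in HA-RBN and 46 in EV(RBN). No summit was listed there with control siRNA, in whose list these genes lie inside a 477430 bp interval with its summit at OSBP, 72 fragments high. Beside TRF-GAA1-3, for phenylalanine, HA-RBN had 32 fragments and EV(RBN) 19, and beside TRK-TTT3-4, for lysine, HA-RBN had 36 and EV(RBN) 13. Summits within 1 kb were found at 3 of the 8 tRNA genes with RB1 siRNA, 0 with control siRNA, 4 in HA-RB(245-255), 3 in EV(245-255), 7 in HA-RBN and 7 in EV(RBN), and neighbouring genes shared a summit. Of the 5 tRNA genes in the rest of the chromosome, 3, 0, 2, 1, 4 and 2 had one in that library order. These tRNA genes were singled out after their values were seen.

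The other 3 places lay more than 12 kb from any protein-coding gene. The summit at chr11:56716653, 12769 bp from OR9G1, recurred within 1 kb in all 6 libraries, with 48 fragments with RB1 siRNA, 29 with control siRNA, 58 in HA-RB(245-255), 43 in EV(245-255), 12 in HA-RBN and 10 in EV(RBN). The summit at chr11:5928390, 13861 bp from OR56A3, held 17, 18, 8, 5, 36 and 6 fragments in that library order. The summit at chr11:124170890, 12455 bp from OR10D3, held 27, 13, 14, 12, 19 and 6.

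Among single receptor genes, OR52W1 had the most fragments at a summit within 1 kb of an end. Higher summits lay just beyond that limit near OR51G1, at chr11:4921952-4921979, 1395 to 1422 bp from its end. They held 10 fragments with RB1 siRNA, 16 in HA-RB(245-255) and 13 in EV(245-255). EV(RBN) had a summit of 3 fragments 1773 bp from OR51G1, and with control siRNA the nearest was 220491 bp away. OR52W1 is a class I gene of 963 bp at chr11:6199224-6200186, the last gene of the first cluster. Its gene end summits held 5 fragments in EV(245-255), 8 in HA-RBN and 5 in EV(RBN), and none was listed with RB1 siRNA, with control siRNA or in HA-RB(245-255). In HA-RBN the summit stood at chr11:6199216, 8 bp from the annotated start, which in the window printed above is the ATG. The authors' values there were a fold enrichment of 4.71, a −log10 p-value of 6.28 and a −log10 q-value of 3.48. In EV(245-255) it lay 324 bp from the start, and in EV(RBN) 153 bp from the far end, inside the gene. In the 3 libraries that did not list it, the nearest summit was 34716 bp away with RB1 siRNA (97 fragments), 13281 bp with control siRNA (7 fragments) and 13340 bp in HA-RB(245-255) (8 fragments). The 97-fragment summit lies at the adjoining ends of FHIP1B and CNGA4, a subunit gene of the olfactory cyclic nucleotide-gated channel.

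OR10G8, a class II gene at chr11:124026798-124030634, was the other member listed in 3 libraries. It had 2 fragments in HA-RB(245-255), 3 in EV(245-255) and 4 in HA-RBN, and none was listed with RB1 siRNA, with control siRNA or in EV(RBN). The HA-RB(245-255) summit lay 372 bp from the start, and the other summits lay 404 and 661 bp from the far end, so the 3 libraries did not mark 1 place. It was the only receptor gene listed in both libraries of the 245-255 pair (0.595% of the receptors, background 31.3% of all genes).

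The prostate receptors did not stand apart from the other receptors. OR51E1, a receptor for short and medium fatty acids at chr11:4643982-4655488, was listed in EV(RBN) alone, with 3 fragments 394 bp from its start. Just outside the 1 kb limit, HA-RBN had a summit of 3 fragments 1319 bp from an end of OR51E1. OR51E2, the prostate-specific G protein-coupled receptor PSGR at chr11:4680171-4697853, was listed in none of the 6 libraries. Its nearest summits were 25671 bp away with RB1 siRNA, 71953 bp with control siRNA, 5184 bp in HA-RB(245-255), 15582 bp in EV(245-255), 2121 bp in HA-RBN and 4461 bp in EV(RBN), and those within 6 kb held 2 or 3 fragments.

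Of the 168 receptor genes, 112 were listed in no library, 44 in 1, 10 in 2 and 2 in 3, and no gene was listed in 4 or more. At least 1 library listed 33.3% of the receptors (background 85.9% of all genes), at least 2 listed 7.14% (background 69.4%), at least 3 listed 1.19% (background 52.6%) and at least 4 listed 0 (background 39.0%). Among the class I genes 22 of 55 were listed in at least 1 library (40%, 27.0 to 54.1), against 34 of 113 class II genes (30.1%, 21.8 to 39.4), and these intervals overlap. Family 52 had 12 of 25 and family 51 had 7 of 23, both class I. In class II, family 5 had 12 of 34, family 10 had 7 of 16, family 8 had 5 of 22 and family 4 had 4 of 24.

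The 72 summits were found at both ends of the receptor genes. The nearer end was the annotated start for 31 and the far end for 26, and 15 belonged to genes whose strand is not in the table. Inside the gene lay 49 of the 72. No receptor summit was shared with another protein-coding gene by the 1 kb rule. Joining summits at most 250 bp apart gave 0 sites with summits of 3 libraries and 2 sites with summits of 2, at OR5L1 and OR10S1, each with 3 fragments in HA-RBN and 2 in EV(245-255). The place near OR51G1 given above lies beyond 1 kb and is not counted among these sites.

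Control siRNA listed no receptor gene, so it could share none with RB1 siRNA, whereas 19.9% of all genes were listed in both. The 2 genes listed only with RB1 siRNA (1.19% of the receptors, background 13.6% of all genes) were OR51F2, with 4 fragments 475 bp from its start, and OR52H1, with 2 fragments 702 bp from its far end. Control siRNA alone listed 0 (background 8.17%). In control siRNA the nearest summit was 213103 bp from OR51F2 and 66545 bp from OR52H1. An interval of the control siRNA list came within 1 kb of both genes, so neither was absent from it by that measure.

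HA-RB(245-255) and EV(245-255) each listed receptor genes that the other did not. HA-RB(245-255) alone listed 11 (6.55%, background 14.2%), and EV(245-255) alone listed 7 (4.17%, background 14.1%). The highest in HA-RB(245-255) alone was OR10Q1, with 4 fragments, followed by OR52N4 with 3, and OR2AG2 had 2. EV(245-255) alone listed OR52W1 with 5 fragments and OR4C12 and OR10S1 with 2 each. Both shares lay below the background, and 0 genes on either side were free of an interval of the other list within 1 kb.

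HA-RBN and EV(RBN) shared 5 receptor genes (2.98%, against 53.0% of all genes). HA-RBN alone listed 22 (13.1%, background 20.4%), and EV(RBN) alone listed 16 (9.52%, background 7.2%), so that the HA-RBN share was below its background and the EV(RBN) share near it. OR5AP2 had 5 fragments in HA-RBN, 676 bp from its start, and OR51G1 and OR10G8 had 4 each, and none of the 3 was listed in EV(RBN). EV(RBN) alone listed OR51B5 with 4 fragments and OR51E1 and OR1S1 with 3 each. Among the shared genes, OR52W1 had 8 fragments in HA-RBN and 5 in EV(RBN), OR10G9 had 4 and 3 in those libraries, and OR52N2 had 3 and 4. At OR52N2 the HA-RBN summit was 310 bp from the start and the EV(RBN) summit 747 bp from the far end, so they marked different places.

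Promoters with little CpG were listed less often in other genes too, and the receptor shares were lower than those of such genes in each library. As said above, the windows of receptor genes may not hold the promoters in use. Among genes with at most 3 CpG in the window, 1.56% of 128 receptor genes were listed with RB1 siRNA (0.190 to 5.53), against 9.90% of 101 other genes of chromosome 11 (4.85 to 17.5). With control siRNA 0 were listed (up to 2.84% by the exact interval), against 7.92% (3.48 to 15.01). The shares were 7.03% against 12.9% in HA-RB(245-255) and 4.69% against 16.8% in EV(245-255). They were 14.8% (9.18 to 22.2) against 41.6% (31.9 to 51.8) in HA-RBN and 11.7% (6.71 to 18.6) against 25.7% (17.6 to 35.4) in EV(RBN). The intervals were apart in HA-RBN, in EV(245-255) and with control siRNA, and overlapped in the other 3 libraries. Over all chromosomes, 1998 genes outside the members had at most 3 CpG, receptor genes elsewhere among them. Their shares were 9.66%, 6.36%, 18.7%, 15.8%, 39.9% and 28.7% in the library order above, and their intervals were apart from those of the members in each library. Of the other chromosome 11 genes with 10 or more CpG, 86.4% were listed in HA-RBN and 74.4% in EV(RBN).

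**Figure D4:**
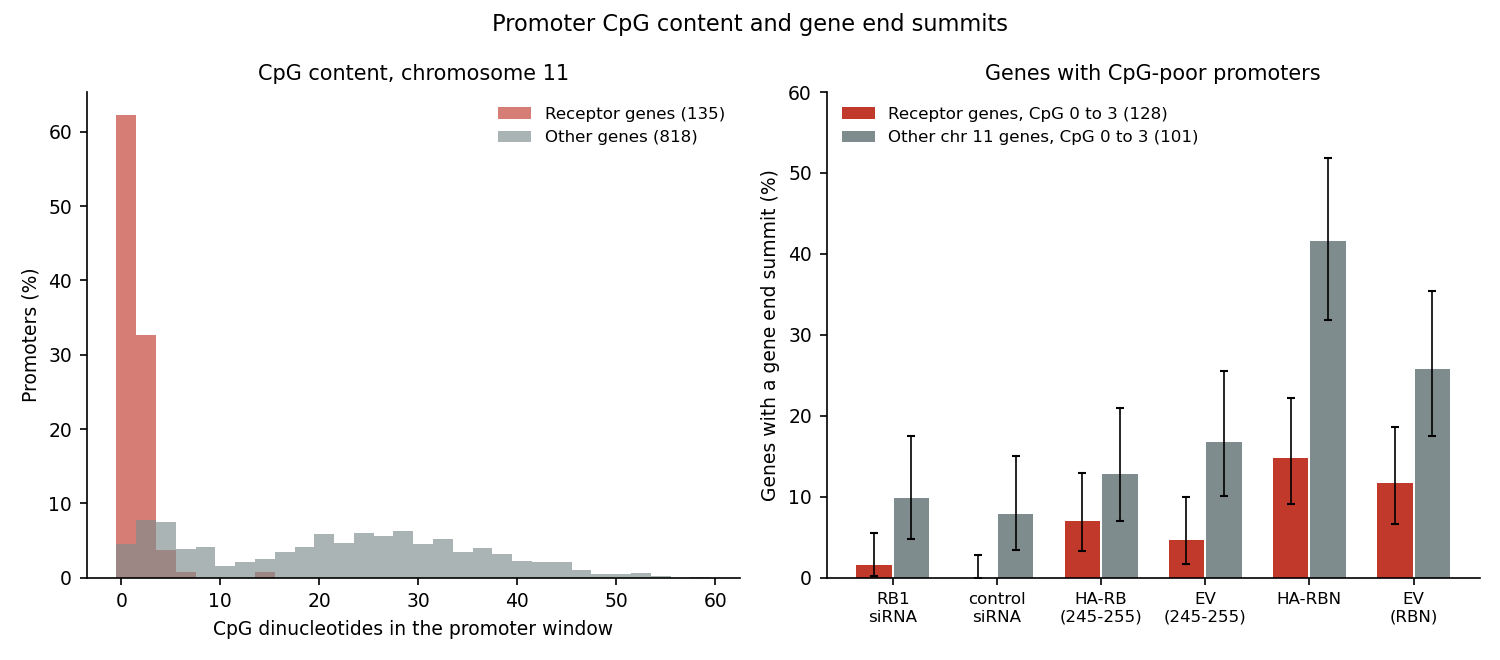
Left, percent of promoters (y axis) by the number of CpG in the 300-base window (x axis) for 135 receptor genes (red) and 818 other genes of chromosome 11 (grey). Right, percent of genes listed (y axis) in each library (x axis) among those with 0 to 3 CpG, with exact 95% intervals; in HA-RBN the share is 14.8% of receptor genes and 41.6% of other genes.

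Both A and T rich motifs searched were more common in the receptor promoters, which were themselves richer in A and T. Their median was 37% G or C, against 62.7% in the other promoters of chromosome 11. Whether the motifs were more common than this base composition gives was not tested. TATAAA, the TATA box, was searched on both strands and found in 35.6% of 135 receptor promoters, against 9.05% of the other promoters of chromosome 11 and 9.63% of all promoters. TAATTA, a core bound by homeodomain proteins such as LHX2, was found in 24.4% of receptor promoters, against 3.06% and 3.34% in those sets. A site of the EBF factors, TCCC and GGGA around 2 bases of any kind, was found in 1.48% against 1.47% and 1.40%. Matches of different motifs were allowed to overlap. The printed OR52W1 promoter holds 1 TATAAA and 1 TAATTA.

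Genes that work with olfactory receptors in signalling were listed at about the share of all genes. Those known from receptor choice, only 12 genes, had a higher share than all genes in each library. Of 20 olfactory signalling genes, 9 were listed with RB1 siRNA, 6 with control siRNA, 11 in HA-RB(245-255), 7 in EV(245-255), 15 in HA-RBN and 12 in EV(RBN). These are 45%, 30%, 55%, 35%, 75% and 60%, beside 33.5%, 28.1%, 45.5%, 45.4%, 73.4% and 60.2% of all genes, and the exact interval includes the share of all genes in each library. Several of these act in many tissues, such as ARRB2, the arrestin gene, with 155, 171, 52, 39, 75 and 14 fragments in that order. OMP, the olfactory marker protein gene, was listed in HA-RBN alone with 5 fragments, and CNGA2, RTP2 and STOML3 were listed in none. Of 12 genes known from receptor choice in mouse, 5, 5, 6, 7, 12 and 9 were listed, or 41.7%, 41.7%, 50%, 58.3%, 100% and 75%, beside those same shares of all genes. The interval includes the share of all genes in 5 libraries, and in HA-RBN its lower bound, 73.5%, lies just above the 73.4% of all genes. LHX2, the homeodomain factor gene, had 44, 40, 13, 16, 15 and 4 fragments, and CBX5, the gene of heterochromatin protein HP1 alpha, had 259, 306, 69, 90, 150 and 71.

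Neighbours of the class I cluster varied. Of 15 globin, TRIM and other genes of that region, 4 were listed with RB1 siRNA, 3 with control siRNA, 2 in HA-RB(245-255), 4 in EV(245-255), 8 in HA-RBN and 5 in EV(RBN). These are 26.7%, 20%, 13.3%, 26.7%, 53.3% and 33.3%, below the shares of all genes given above, and the exact interval includes that share in all libraries but HA-RB(245-255) (1.66 to 40.5). Of the globin genes, HBB, for adult beta globin, had 4 fragments in HA-RB(245-255), 4 in HA-RBN and 3 in EV(RBN), and HBD, HBG1, HBG2 and HBE1 were listed in no library. TRIM5, a restriction factor against retroviruses, was listed in all 6, with 7, 5, 6, 5, 5 and 6 fragments.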

How the data were processed

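The deposited lists hold, per peak, the authors' fold enrichment (a ratio), −log10 p-value, −log10 q-value and a score, with no header. The tools named are MACS2 2.1.0, Bowtie 1.1.2, Trimmomatic 0.33 and bcl2fastq 2.17, with build hg38, per the submitters' processing notes. Neither the read totals nor the controls used for calling are stated there. Peaks were listed per library.

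Fold enrichment was read as pileup plus 1 over local background plus 1, and the p-value as the Poisson tail at that pileup. Both together gave the fragments at each summit, with the lowest solution kept. One fragment was worth 0.0176, 0.0166, 0.0512, 0.0434, 1 and 1 on the lists' scales, in the order RB1 siRNA, control siRNA, HA-RB(245-255), EV(245-255), HA-RBN and EV(RBN), and the background was 0.539, 0.413, 0.250, 0.187, 0.634 and 0.367 fragments per base. For simulated peaks built with the same formulas, fragment worth and background, the fragment number was recovered for 100% of 5000 per library. That checks the inversion only, and cannot show that the formulas hold for the authors' lists. Intervals are Clopper-Pearson (shares) or Poisson (densities). Gene positions and promoters are RefSeq, GRCh38.p14. Python 3.11.15, numpy 2.4.6, pandas 2.3.3, scipy 1.17.1 and matplotlib 3.10.9 were used.

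The members, gene lists and measures were chosen with earlier results of these data known. Named are OR51E1 and OR51E2, members listed in at least 4 libraries (there were 0), the 5 members with the most fragments in each library and, per pair and direction, the 3 listed only there with the most fragments, 19 in all, of which a selection is printed. OR5L1, the tRNA genes and the pseudogenes were added after their values were seen.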

Additional observations from a re-analysis of the deposited data

How the results depend on the processing

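No paired analysis was possible because each group has 1 library. Of 127 alternative values 69 stayed near the reported ones, 58 moved, and all 24 density ratios of receptor ends to other gene ends stayed below 1. The ratios at −log10 q of at least 2 could not rise in the 4 lists with an IgG partner, where summits of few fragments cannot pass. In the library order of the report, the receptor genes listed numbered 1 (RB1 siRNA) and 12 (EV(RBN)) at 500 bp, and 2 (control siRNA), 26 (HA-RB(245-255)), 14 (EV(245-255)) and 42 (HA-RBN) at 2 kb. With −log10 q of at least 2 they numbered 1 in HA-RBN and 0 elsewhere. With at least 5 fragments they numbered 0, 0, 0, 1, 2 and 1. Counting gene bodies gave 6, 4, 25, 17 and 47 in all but EV(RBN). Counting annotated starts alone, a choice made after seeing the data, gave 1 with RB1 siRNA, 5 in EV(245-255), 15 in HA-RBN and 12 in EV(RBN). Only the 135 receptor genes with a promoter entry could be counted that way. By either end, those genes gave 2, 6, 20 and 18 in these 4 libraries. The share of all genes was counted only for the main rule and for 5 and 20 fragments. The other counts here, and the pair counts below, therefore have no background. The density ratio to other gene ends was 0.0167 in HA-RBN and 0 elsewhere at −log10 q of at least 2, and 0, 0, 0, 0.0202, 0.0200 and 0.0207 at 5 fragments, and 0.349 at 2 kb in HA-RB(245-255). The ratio of clusters to the rest of the chromosome was 0 for the siRNA and 245-255 pairs and 0.404 in HA-RBN at −log10 q of at least 2. At 5 fragments it was 0.468 with RB1 siRNA, 0.480 in HA-RB(245-255), 0.516 in EV(245-255), 0.261 in HA-RBN and 0.283 in EV(RBN). The values of 0 by q-value in the siRNA and 245-255 pairs, for clusters and receptor ends, cannot be read as low density. Even the OSBP summit of 88 fragments with RB1 siRNA did not pass. The median receptor summit with RB1 siRNA held 4 fragments at 2 kb. Genes listed in 1 library of a pair numbered 0 for RB1 siRNA, HA-RB(245-255) and EV(245-255) when absence was judged by intervals. They numbered 1 for RB1 siRNA and 13 for HA-RBN with lists of equal length, and 0, 0, 1, 1 and 0 for RB1 siRNA, HA-RB(245-255), EV(245-255), HA-RBN and EV(RBN) at 5 fragments. Joining summits at most 500 bp apart gave 1 site in 3 libraries, at OR52W1. The causes of these moves were not tested beyond the narrower or wider counting each setting makes. Read totals are not stated, and in the siRNA pair every receptor value rests on 2 genes with RB1 siRNA and 0 with control siRNA.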
